A study of Mus musculus with 9 samples.

Results

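The 10 genes described here encode NF-kB subunits, the I-kB proteins that bind them and the feedback enzyme gene Tnfaip3. They were chosen by name, with earlier results of these data known. They are the subunit genes Nfkb1, Nfkb2, Rel, Rela and Relb, the inhibitor genes Nfkbia and Nfkbie, the nuclear I-kB genes Nfkbiz and Bcl3, and Tnfaip3. All 10 are among the 22036 genes of the deposited expression table, and all 10 passed the filter on low values that kept 14955 genes. RNA was sequenced from sorted microglia, the macrophages that live in the brain. All mice were wild-type C57BL/6 females, and they were young (6 months), middle-aged (15 months) or old (23 months). There were 3 libraries for each age, each from 3 separate mice whose material was pooled before RNA extraction, so an error given here measures how such pools vary and no value belongs to a single mouse. The comparison between ages asks which transcripts differ in microglia over adult life.

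NF-kB is a family of transcription factors that act as pairs of subunits. In resting cells I-kB proteins hold the pairs in the cytoplasm; signals from Toll-like receptors, TNF or interleukin-1 lead to destruction of the inhibitor, and the freed pairs enter the nucleus and switch on inflammatory genes. Among the genes switched on are those of the inhibitors themselves, so their transcripts are often used as a readout of the pathway, and in microglia the pathway is known for driving cytokine and chemokine genes. Transcript levels do not show where the proteins are, and neither nuclear entry nor protein was measured.

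The values are on a log2 scale, as the authors deposited them, and the depth behind each value is unknown because the sources used here give no read totals. No library was a copy of another. Old replicate 3 stood apart from the other 8 libraries on the first principal component, at 29.9 against -14.4 to 5.9, and had the largest residual SD, 0.202 against 0.0717 to 0.149. Middle-aged replicate 2 had the highest mean level of neutrophil markers. The microglial markers Tmem119, Cx3cr1 and Csf1r were present in every library, with Cx3cr1 between 17.7 and 18.8 and Tmem119 between 15.2 and 15.5. They were picked from 15 listed microglia identity markers, of which 12 had values. Neutrophil granule transcripts were abundant in the same libraries: Ngp lay between 16.6 and 18.9 and none of the 16 neutrophil markers fell below the filter, the lowest being Ly6g at 8.36 to 9.28. In a bulk library a change in the share of such cells and a change in RNA per cell cannot be told apart.

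The inhibitor gene Nfkbia had the highest transcript level of the 10 per kilobase of exon. On the scale of log2 value minus log2 of the exon length in kilobases, Nfkbia lay at 12.7 ± 0.36 (mean ± SD over 9 libraries) and Rela, the main activating subunit gene, came next at 11.3 ± 0.12. Their ranges over the 9 libraries did not overlap. The length is that of all annotated exons merged, 12.061 kb for Nfkb1 and 3.072 kb for Rela, so the order depends on it. Before this division Nfkb1 (13.51 to 13.93) lay above Rela (12.72 to 13.11) in every library. Nfkbiz (10.3 ± 0.25), Rel (10.2 ± 0.14), Nfkb1 (10.1 ± 0.14) and Tnfaip3 (9.99 ± 0.32) followed, and these neighbours overlapped in range, so their order is not fixed by these libraries. Nfkbie, at 8.75 ± 0.21, was separate from Tnfaip3 above it and from Relb below it. Relb (7.67 ± 0.11), Nfkb2 (5.95 ± 0.12) and Bcl3 (4.80 ± 0.09) were the lowest, each with a range below that of the gene before. Relb and Nfkb2 encode the subunits of the alternative pathway, which the kinase NIK switches on.

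**Figure D1:**
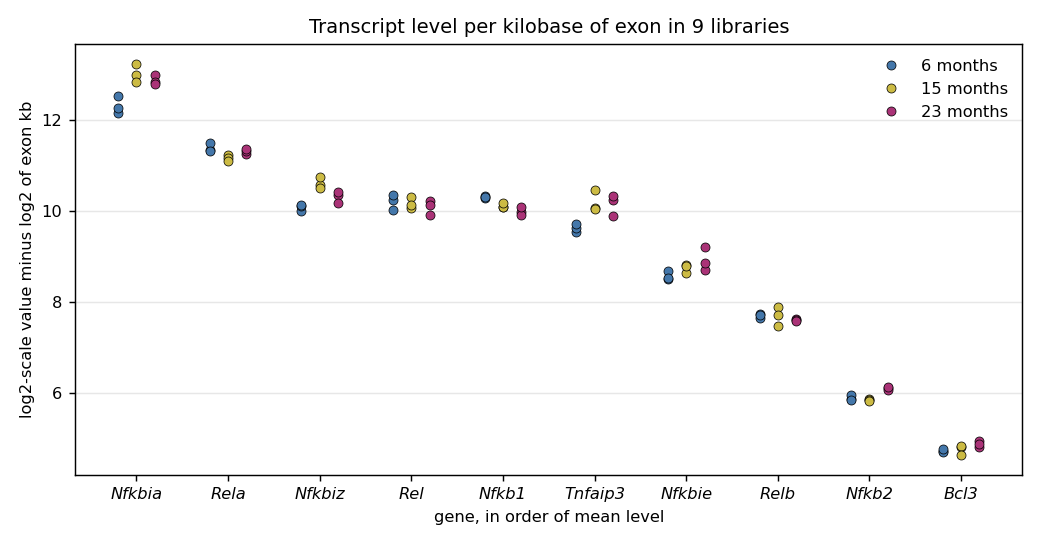
Level of each gene on the log2 scale per kilobase of exon (vertical axis) for the 10 genes in order of mean level (horizontal axis); each point is 1 library, coloured by age. Nfkbia is the highest in every library, with a mean of 12.7, and Bcl3 the lowest, with a mean of 4.80.

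None of the 10 genes passed the test over all genes in any pair of ages (limma moderated test, Benjamini-Hochberg adjustment over 14955 genes). In middle-aged against young libraries 0 of 10 were called, against 0.114% of all genes tested, and 5 of 10 had an unadjusted p under 0.05, against 11.4% of all genes. In old against young libraries 0 of 10 were called, against 2.00% of all genes, and 6 of 10 had an unadjusted p under 0.05, against 16.8%. In old against middle-aged libraries 0 of 10 were called, against 0.174% of all genes, and 2 of 10 had an unadjusted p under 0.05, against 10.2%. The authors' deposited table from DESeq2 called 3 of the 10 higher at 15 months than at 6 (Nfkbia, Nfkbiz and Tnfaip3), and 0 lower, against 5.78% of its genes called in either direction. For 23 against 6 months the authors' deposited table called 2 higher (Nfkbia and Tnfaip3) and 1 lower (Nfkb1), against 7.62% of its genes. For 23 against 15 months the authors' deposited table called 0 of the 10, against 1.32% of its genes.

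The separation of the libraries gives the same comparisons without a model. Between 15 and 6 months the libraries did not overlap for 5 of the 10 genes, 3 higher (Nfkbia, Nfkbiz and Tnfaip3) and 2 lower (Nfkb1 and Rela), against 21.6% of all genes tested in either direction. Between 23 and 6 months 8 of the 10 did not overlap, 6 higher (Nfkb2, Nfkbia, Nfkbie, Nfkbiz, Bcl3 and Tnfaip3) and 2 lower (Nfkb1 and Relb), against 24.5% of all genes. Between 23 and 15 months 4 did not overlap, 2 higher (Nfkb2 and Rela) and 2 lower (Nfkb1 and Nfkbiz), against 12.9% of all genes. The median log2 difference of the 10 genes was 0.01 at 15 against 6 months, 0.18 at 23 against 6 months and -0.06 at 23 against 15 months. Over all genes tested the medians were -0.000824, -0.0086 and -0.00395. In 28 of the 30 comparisons of a gene between ages the authors' deposited table gives a log2 fold further from 0 than the difference here, so differences from the log2 table may be compressed. The comparisons share libraries, and the young ones enter both of the first pair.

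**Figure D2:**
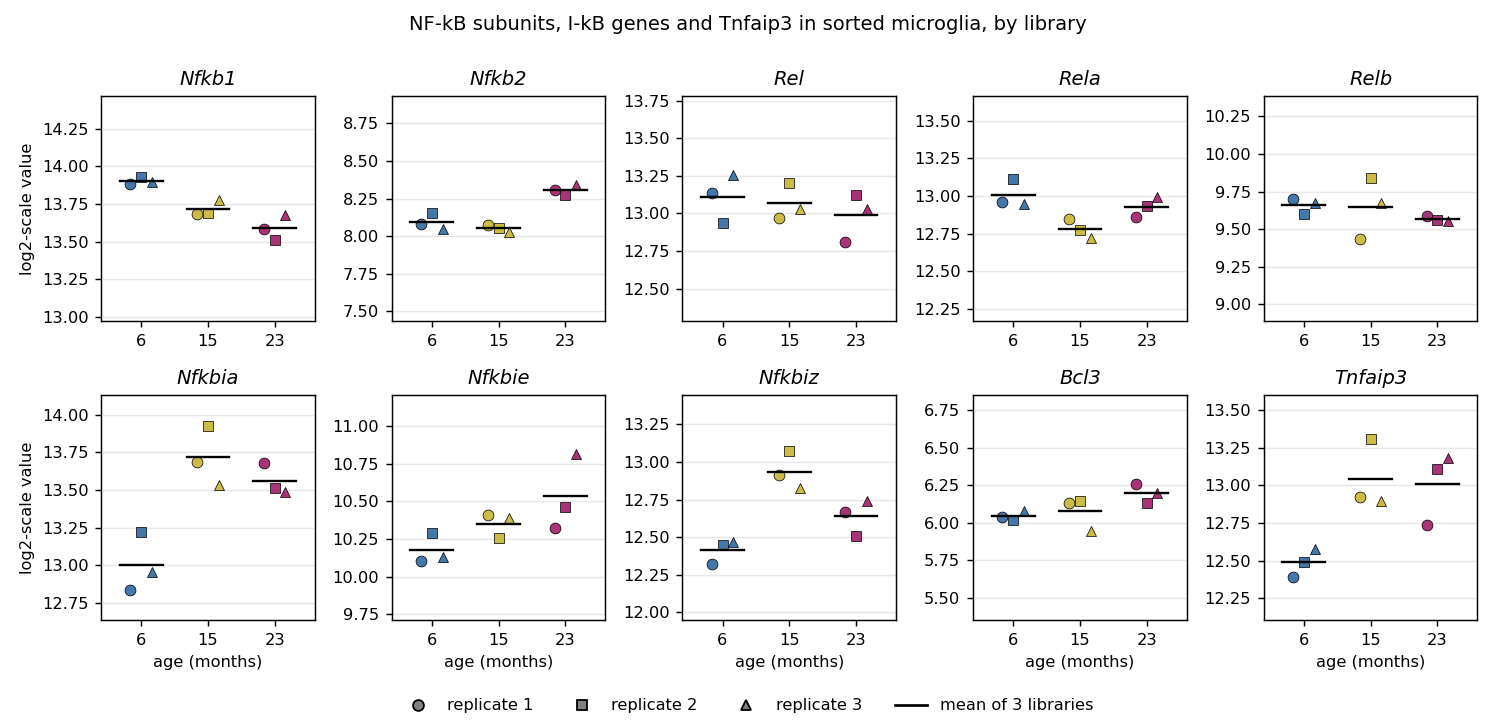
Log2-scale value (vertical axis, the same span in every panel) of each gene against age in months; symbols are the 3 libraries of each age and bars their means. Nfkbia, Nfkbiz and Tnfaip3 lie higher in all 3 middle-aged libraries than in any young one, and the young libraries are the 3 highest of the 9 for Nfkb1.

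Nfkbia encodes I-kB alpha, the classical inhibitor that is destroyed on activation and made again by NF-kB itself. Its values were 12.84, 13.22 and 12.96 in young replicates 1 to 3, 13.69, 13.93 and 13.53 in the middle-aged ones and 13.68, 13.51 and 13.48 in the old ones. Every later library lay above every young one, and the middle-aged and old libraries overlapped. The log2 difference was 0.71 ± 0.13 (SE) at 15 against 6 months, a fold of 1.64, with a 95% interval of 0.43 to 0.99 (limma, Benjamini-Hochberg adjusted p = 0.0761, n = 3 per group). At 23 against 6 months it was 0.56 ± 0.13, a fold of 1.47, with an interval of 0.27 to 0.84 (limma adjusted p = 0.0555), and between 15 and 23 months it was -0.16 ± 0.13, with an interval that includes 0. Over 20 alternative settings the adjusted p for old against young ran from 0.00308 to 0.239 and passed in 4. The authors' deposited table gives log2 folds of 0.75 and 0.65 for the first 2 comparisons, with DESeq2 adjusted p = 0.000209 and 0.00148. Nfkbia lies on chromosome 12 at 55489410 to 55492647 of GRCm38, on the minus strand.

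Tnfaip3 encodes a ubiquitin-editing enzyme that shuts off signalling upstream of the inhibitor and is itself switched on by NF-kB. Its values were 12.39, 12.49 and 12.58 at 6 months, 12.92, 13.31 and 12.90 at 15 months and 12.74, 13.11 and 13.18 at 23 months. The young libraries were the 3 lowest of the 9, and the spread was wider at both later ages (SD 0.23 and 0.24, against 0.09). The log2 difference from young libraries was 0.55 ± 0.14 (SE) at 15 months and 0.52 ± 0.14 at 23 months, folds of 1.47 and 1.44 (limma, Benjamini-Hochberg adjusted p = 0.197 and 0.0952, n = 3 per group). The authors' deposited table gives 0.62 and 0.63, with DESeq2 adjusted p = 0.00277 and 0.00439. The difference between 23 and 15 months was -0.03 ± 0.14, and 0.10 without middle-aged replicate 2 or without old replicate 1. Tnfaip3 lies on chromosome 10 at 19000910 to 19015657, on the minus strand.

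Nfkbiz encodes I-kB zeta, a nuclear I-kB protein that works with NF-kB on a second wave of target genes. Its values were 12.32, 12.45 and 12.47 at 6 months, 12.91, 13.07 and 12.82 at 15 months and 12.67, 12.51 and 12.74 at 23 months. The 3 ages did not overlap, with the middle-aged libraries highest and the old ones between. The log2 difference was 0.52 ± 0.10 (SE) at 15 against 6 months, 0.23 ± 0.10 at 23 against 6 months and -0.30 ± 0.10 at 23 against 15 months (limma, Benjamini-Hochberg adjusted p = 0.101, 0.283 and 0.362, n = 3 per group). The authors' deposited table gives 0.63, 0.29 and -0.35, with DESeq2 adjusted p = 8.35e-05, 0.175 and 0.233. The step from 15 to 23 months minus the step from 6 to 15 months was -0.82 ± 0.17 for Nfkbiz, with unadjusted p = 0.000702 and adjusted p = 0.405 (limma). The same quantity was -0.87 ± 0.22 for Nfkbia (limma adjusted p = 0.434) and -0.59 ± 0.25 for Tnfaip3 (limma adjusted p = 0.597). In limma's test of that quantity 0 of 14955 genes were called, 1181 (7.90%) had an unadjusted p under 0.05, and the middle-aged libraries enter both steps. Nfkbiz lies on chromosome 16 at 55811375 to 55838899, on the minus strand.

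Marker lists of other cells and of rapid activation also differed between these libraries. Middle-aged replicate 2 was the highest of the 9 libraries for Nfkbia, Nfkbiz and Tnfaip3 and also for the neutrophil list, at a mean log2 deviation of 0.90 from the 9-library means, against 0.07 and 0.01 in the other 2 middle-aged libraries. The summed linear level of the 16 neutrophil markers ranged from 329229 to 566836 at 6 months, from 494783 to 1068720 at 15 months and from 272519 to 550542 at 23 months, and 0 of 16 were called in any pair of ages. Immediate early genes, the first to be transcribed after a stimulus, had deviations of -0.24, -0.02 and -0.08 at 6 months, 0.11, 0.38 and 0.21 at 15 months and -0.21, -0.18 and 0.03 at 23 months. Of 22 immediate early genes tested 0 were called at 15 against 6 months and 0 at 23 against 6 months, while 2, Fosb and Egr1, fell at 23 against 15 months (limma, Benjamini-Hochberg). That count of 2 became 0 when any library other than middle-aged replicate 1 was left out. The 16 monocyte markers summed to 193706 to 238409 at 6 months, 234724 to 362871 at 15 months and 294260 to 334867 at 23 months, with 0, 4 and 0 called higher at 15 against 6, 23 against 6 and 23 against 15 months. Markers of border macrophages, which line the brain's vessels and membranes, had deviations of 0.21, 0.32 and 0.27 at 6 months, 0.13, -0.12 and -0.24 at 15 months and -0.02, -0.17 and -0.38 at 23 months. At 23 against 6 months 3 of these 16 fell (Cd209a, Mgl2 and Stab1), and 0 were called in the other comparisons. T and NK cell markers had deviations of -0.09 to -0.02 at 6 months, -0.13 to -0.02 at 15 months and 0.06 to 0.18 at 23 months; at 23 against 6 months 2 of 16 rose (Cd8b1 and Cd8a), and 0 were called in the other comparisons. Over all genes tested 0.114%, 2.00% and 0.174% were called in either direction at 15 against 6, 23 against 6 and 23 against 15 months. The part of these lists in the differences of Nfkbia, Nfkbiz and Tnfaip3 was not tested. Without middle-aged replicate 2 the log2 differences at 15 against 6 months were 0.61 for Nfkbia, 0.46 for Nfkbiz and 0.42 for Tnfaip3 (limma adjusted p = 0.306, 0.372 and 0.502). Without old replicate 3 those at 23 against 6 months were 0.59, 0.18 and 0.44 (limma adjusted p = 0.0872, 0.476 and 0.213).

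**Figure D3:**
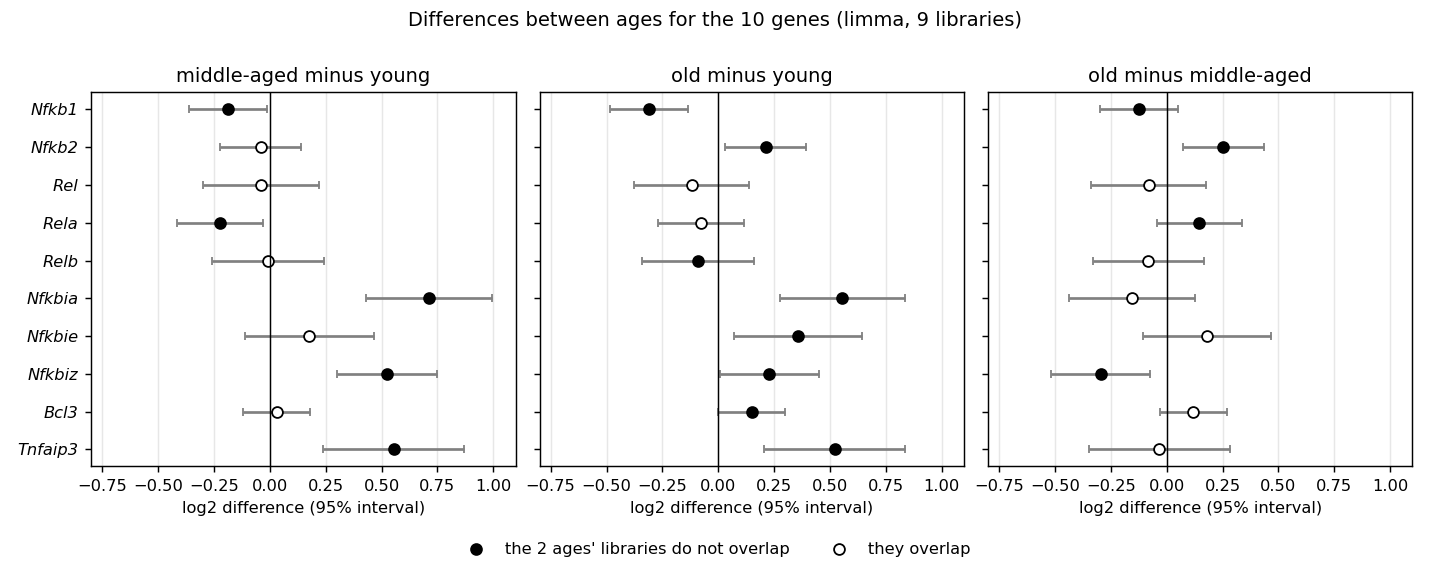
Log2 difference between ages (horizontal axis) for each gene, with the 95% interval of the limma fit; filled points mark genes whose 2 groups of 3 libraries do not overlap. Nfkbia has the largest difference at 15 against 6 months, 0.71, and at 23 against 6 months, 0.56, and Nfkb1 lies below 0 in all 3 comparisons.

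The promoters are shown because Nfkbia and Tnfaip3 are textbook targets of NF-kB and the match to its binding sequence can be read directly. RefSeq windows on GRCm38.p6, from 250 bases before to 50 bases after a start site, were at hand for 7 of the 10 genes: Nfkb2, Rel, Rela, Nfkbia, Nfkbie, Bcl3 and Tnfaip3. They were searched on both strands for the kB consensus, a motif of 10 bases, and capitals mark the matches, which merge where they overlap. Sequences run 5′ to 3′ on the strand of the gene.
Nfkbia, chr12:55492598-55492897, minus strand: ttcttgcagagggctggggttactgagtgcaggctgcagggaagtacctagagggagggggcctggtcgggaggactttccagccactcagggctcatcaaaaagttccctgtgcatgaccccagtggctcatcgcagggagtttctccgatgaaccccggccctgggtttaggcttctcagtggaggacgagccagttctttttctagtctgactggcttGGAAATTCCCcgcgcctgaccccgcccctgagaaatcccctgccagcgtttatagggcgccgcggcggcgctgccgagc
Tnfaip3, chr10:19015361-19015660, minus strand: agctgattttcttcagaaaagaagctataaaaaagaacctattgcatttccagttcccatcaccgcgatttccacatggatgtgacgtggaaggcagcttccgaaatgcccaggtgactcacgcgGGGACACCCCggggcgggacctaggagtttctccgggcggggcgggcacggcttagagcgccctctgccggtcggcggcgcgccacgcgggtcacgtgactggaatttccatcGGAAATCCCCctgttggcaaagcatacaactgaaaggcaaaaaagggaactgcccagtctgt
Rel, chr11:23770920-23771219, minus strand: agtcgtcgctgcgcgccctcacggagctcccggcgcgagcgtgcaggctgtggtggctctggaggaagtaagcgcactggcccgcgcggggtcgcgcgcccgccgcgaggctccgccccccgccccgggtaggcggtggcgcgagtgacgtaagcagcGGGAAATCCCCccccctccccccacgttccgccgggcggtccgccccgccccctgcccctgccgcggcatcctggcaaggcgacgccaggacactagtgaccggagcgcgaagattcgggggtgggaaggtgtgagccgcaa
Nfkb2, chr19:46304487-46304786, plus strand: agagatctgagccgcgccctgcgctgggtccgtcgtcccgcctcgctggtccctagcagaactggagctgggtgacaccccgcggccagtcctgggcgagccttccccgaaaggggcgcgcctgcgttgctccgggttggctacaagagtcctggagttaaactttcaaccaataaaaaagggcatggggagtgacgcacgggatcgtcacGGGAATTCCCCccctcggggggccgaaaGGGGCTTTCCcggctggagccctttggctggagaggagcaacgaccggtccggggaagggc
Rela, chr19:5637291-5637590, plus strand: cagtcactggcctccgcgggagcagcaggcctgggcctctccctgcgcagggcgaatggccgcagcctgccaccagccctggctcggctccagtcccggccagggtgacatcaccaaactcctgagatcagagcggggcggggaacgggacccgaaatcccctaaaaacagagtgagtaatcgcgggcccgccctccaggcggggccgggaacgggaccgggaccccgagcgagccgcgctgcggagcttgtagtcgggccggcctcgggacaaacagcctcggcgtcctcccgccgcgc
Of the 7 genes with a window, 6 held at least 1 match in at least 1 of their windows, Rela being the exception, and 9.55% of the 27025 gene symbols in the table did. By window, 8 of 10 held a match, against 8.46% of all 32851 windows of the same length. Of these 8 windows 3 belong to Nfkb2, and 2 of them overlap and hold the same GGGACTTTCC site, which is thus counted in both. The Nfkbia match GGAAATTCCC starts 29 bases before the start site. Tnfaip3 has 2 matches in the window shown, starting 125 and 12 bases before its RefSeq start site, and 0 in a second window. Rel and Nfkb2 each hold a pair of overlapping matches, GGGAAATCCC with GGAAATCCCC and GGGAATTCCC with GGAATTCCCC, and the Nfkb2 window shown holds a further one, GGGGCTTTCC. Nfkb2 has 2 other windows, with GGAATGTCCC and GGGACTTTCC in one and GGGACTTTCC in the other. By the GENCODE M21 positions the Nfkb2 windows lie inside the gene (46304320 to 46312385). The Tnfaip3 window shown lies almost wholly inside its gene (19000910 to 19015657), and so do both its matches. Only the outer limits of each gene were compared, and not the starts of its transcripts. Whether the 2 annotations place these starts differently was thus not tested. The distances given here use the RefSeq starts. The windows of Nfkbie (GGGGGATTCC) and Bcl3 (GGGAAGTCCC) held 1 match each. A match describes the letters only; binding was not measured.

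Nfkbie encodes I-kB epsilon, another cytoplasmic inhibitor that NF-kB induces. Its values were 10.11, 10.29 and 10.13 at 6 months, 10.41, 10.25 and 10.39 at 15 months and 10.32, 10.46 and 10.81 at 23 months. The old libraries all lay above the young ones, with old replicate 3 the highest. The log2 difference was 0.18 ± 0.13 (SE) at 15 against 6 months and 0.36 ± 0.13 at 23 against 6 months (limma, Benjamini-Hochberg adjusted p = 0.68 and 0.201, n = 3 per group). Without old replicate 3 the difference at 23 against 6 months was 0.22 (limma adjusted p = 0.375). The authors' deposited table gives 0.25 and 0.48, with DESeq2 adjusted p = 0.394 and 0.121. Nfkbie lies on chromosome 17 at 45555703 to 45563169, on the plus strand.

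Bcl3 encodes a nuclear I-kB protein that binds homodimers of the subunits made from Nfkb1 and Nfkb2. Its values were 6.04, 6.02 and 6.08 at 6 months, 6.14, 6.15 and 5.95 at 15 months and 6.26, 6.13 and 6.20 at 23 months. The old libraries lay above the young ones, and the middle-aged ones overlapped with both. The log2 difference at 23 against 6 months was 0.15 ± 0.07 (limma, Benjamini-Hochberg adjusted p = 0.302, n = 3 per group), but 0.57 ± 0.23 in the authors' deposited table (DESeq2 adjusted p = 0.0947). The 2 deposited sources lay closer in the other comparisons. At 15 against 6 months the difference was 0.03 ± 0.07 and the authors' log2 fold 0.05. At 23 against 15 months the difference was 0.12 ± 0.07 and the authors' log2 fold 0.10. The authors' fold of 0.57 thus stands apart from their other folds for Bcl3, and the reason was not tested. Exonic bases of Bcl3 are shared with 1 gene of the opposite strand, Gm16175. Bcl3 lies on chromosome 7 at 19808462 to 19822770, on the minus strand.

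Among the subunits, Nfkb1, which encodes a precursor that is cut to a DNA-binding subunit without an activation domain, lay lower at each later age. Its values were 13.88, 13.93 and 13.89 at 6 months, 13.68, 13.69 and 13.77 at 15 months and 13.58, 13.51 and 13.68 at 23 months. The young libraries lay clearly apart from the others, while the lowest middle-aged and the highest old library were separated by almost nothing, 13.6802 against 13.6797. The log2 difference was -0.19 ± 0.08 (SE) at 15 against 6 months, -0.31 ± 0.08 at 23 against 6 months and -0.12 ± 0.08 at 23 against 15 months (limma, Benjamini-Hochberg adjusted p = 0.397, 0.0756 and 0.623, n = 3 per group). For 23 against 6 months the 95% interval was -0.49 to -0.14 and the old level 0.806 of the young one. Over 20 alternative settings its adjusted p for that comparison ran from 0.00674 to 0.271 and passed in 2. The authors' deposited table gives a log2 fold of -0.40 ± 0.10, with DESeq2 adjusted p = 0.00382. Nfkb1 lies on chromosome 3 at 135584655 to 135691547, on the minus strand.

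Rela encodes the main activating subunit, which pairs with the product of Nfkb1. Its values were 12.96, 13.11 and 12.94 at 6 months, 12.85, 12.78 and 12.72 at 15 months and 12.86, 12.93 and 12.99 at 23 months. The middle-aged libraries were the 3 lowest of the 9, while young and old ones overlapped. The log2 difference was -0.22 ± 0.09 (SE) at 15 against 6 months, -0.08 ± 0.09 at 23 against 6 months and 0.15 ± 0.09 at 23 against 15 months (limma, Benjamini-Hochberg adjusted p = 0.353, 0.695 and 0.599, n = 3 per group). Rela lies on chromosome 19 at 5637483 to 5648130, on the plus strand.

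Nfkb2, whose precursor is cut to the partner of RelB in the alternative pathway, was highest at 23 months. Its values were 8.08, 8.15 and 8.05 at 6 months, 8.08, 8.06 and 8.03 at 15 months and 8.30, 8.27 and 8.34 at 23 months. All 3 old libraries lay above the other 6, and young and middle-aged libraries overlapped. The log2 difference was 0.21 ± 0.08 (SE) at 23 against 6 months and 0.25 ± 0.08 at 23 against 15 months (limma, Benjamini-Hochberg adjusted p = 0.227 and 0.342, n = 3 per group). The authors' deposited table gives 0.51 for each, with DESeq2 adjusted p = 0.0855 and 0.143. Exons of 2 genes of the opposite strand, Psd and AC114539.1, share bases with Nfkb2, and the sources used here do not say whether reads were counted by strand. Nfkb2 lies on chromosome 19 at 46304320 to 46312385, on the plus strand.

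Relb, the activating partner in the alternative pathway, had values of 9.70, 9.60 and 9.67 at 6 months, 9.43, 9.84 and 9.67 at 15 months and 9.59, 9.56 and 9.55 at 23 months. The middle-aged libraries spanned both other ages (SD 0.21, against 0.05 and 0.02), and the old ones lay just below the young ones. The log2 difference at 23 against 6 months was -0.09 ± 0.11 (SE), with a 95% interval of -0.34 to 0.16 (limma, Benjamini-Hochberg adjusted p = 0.723, n = 3 per group). Rel encodes c-Rel, an activating subunit of blood cells. Its values were 13.14, 12.93 and 13.25 at 6 months, 12.97, 13.20 and 13.03 at 15 months and 12.81, 13.13 and 13.03 at 23 months, and the ages overlapped throughout. The differences for Rel were -0.04 ± 0.12 at 15 against 6 months and -0.12 ± 0.12 at 23 against 6 months, with 95% intervals of -0.30 to 0.22 and -0.38 to 0.14. Relb lies on chromosome 7 at 19606217 to 19629438 and Rel on chromosome 11 at 23736847 to 23770970, both on the minus strand.

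Within each library the inhibitor gene Nfkbia stood further above Rela and Nfkb1 per kilobase of exon at the later ages. Per kilobase of exon, the log2 level of Nfkbia minus that of Rela was 0.81, 1.04 and 0.94 at 6 months, 1.77, 2.08 and 1.74 at 15 months and 1.75, 1.51 and 1.43 at 23 months. Every later library lay above every young one. Scaling between libraries cancels in this quantity only if the values are plain log2 of scaled counts, which is not stated. The same quantity against Nfkb1 was 1.86, 2.19 and 1.97 at 6 months, 2.91, 3.14 and 2.67 at 15 months and 3.00, 2.91 and 2.71 at 23 months. Between the subunits, Nfkb2 minus Nfkb1 was -4.41, -4.38 and -4.45 at 6 months, -4.21, -4.24 and -4.35 at 15 months and -3.88, -3.84 and -3.94 at 23 months, so that the 3 ages did not overlap. These pairs were chosen after the values were seen and have no test.

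Other genes of the pathway were counted from 3 lists. Of 26 signalling kinases and adaptors tested, which carry the signal from receptors to the inhibitors, 0 were called in each pair of ages, and the list medians were -0.00302, -0.06 and -0.05 at 15 against 6, 23 against 6 and 23 against 15 months. The smallest p at 23 against 6 months were those of the receptor-bound kinase gene Ripk1 (log2 difference -0.34 ± 0.12) and of Map3k7, encoding the kinase TAK1 (-0.26 ± 0.10), with limma adjusted p = 0.186 and 0.218. At 15 against 6 months they were those of the ubiquitin ligase gene Birc2 (0.21 ± 0.09, limma adjusted p = 0.395) and the kinase gene Irak1 (0.17 ± 0.09, limma adjusted p = 0.542). Of 13 other inhibitors and feedback genes 0 were called in each pair, with medians of 0.02, 0.08 and 0.03. In that list Nfkbid, another nuclear I-kB gene, had a log2 difference of 0.30 ± 0.09 at 15 against 6 months and Nfkbib, encoding I-kB beta, 0.40 ± 0.14 (limma adjusted p = 0.252 and 0.312). The authors' deposited table gives 0.42 and 0.57 for these, with DESeq2 adjusted p = 0.00735 and 0.0227. Nlrc5, a regulator of MHC class I genes, had 0.60 ± 0.15 and Tnip1, whose product works with that of Tnfaip3, 0.29 ± 0.10 at 23 against 6 months (limma adjusted p = 0.0718 and 0.172). The authors' deposited table gives 0.73 and 0.40 for these, with DESeq2 adjusted p = 0.00542 and 0.0146. Both also lay higher at 23 against 15 months, by 0.53 ± 0.15 and 0.32 ± 0.10 (limma adjusted p = 0.267 and 0.305). The count of 0 in this list at 23 against 6 months was 1 without old replicate 1.

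Some target genes of NF-kB rose in old against young libraries. Of 29 tested, 8 rose, 0 fell and 21 were not called at 23 against 6 months (limma, Benjamini-Hochberg), where 1.70% of all genes tested were called higher. The list was chosen with earlier results of these data known, so its contrast with all genes is not a test. The list median was 0.34, against -0.0086 over all genes. The pathogen receptor gene Tlr2 was at 12.98, 13.19 and 13.03 at 6 months, 13.76, 13.73 and 13.46 at 15 months and 14.07, 14.07 and 13.94 at 23 months, a rise of 0.96 ± 0.10 from 6 to 23 months (limma adjusted p = 0.000926). Csf1, encoding a growth factor of microglia, rose by 1.04 ± 0.14, the cytokine gene Tnf by 0.91 ± 0.13 and the survival gene Bcl2a1a by 0.81 ± 0.12 (limma adjusted p = 0.00468, 0.00524 and 0.00651). Bcl2a1a has near-identical relatives, so how its reads were divided is uncertain. The other 4 that rose were Plau, Ccl3, Ccl4 and Ccl5 (limma adjusted p = 0.00733, 0.0287, 0.0430 and 0.04995), the last barely under the threshold. Others, such as Il6 and Cxcl1, had differences of -0.15 and -0.00262. Ccl5 encodes a chemokine that T and NK cells also make. At 15 against 6 months 0 of 29 were called, although the list median was 0.32; the smallest p were those of Tnf (0.80 ± 0.13, limma adjusted p = 0.0545) and Tlr2 (0.58 ± 0.10, limma adjusted p = 0.0743). That count of 0 was 3 without old replicate 3. Also at 15 against 6 months, the list medians were 0.49 for neutrophil markers, 0.43 for monocyte markers and 0.35 for immediate early genes. They were -0.33 for border macrophage markers, -0.01 for T and NK cell markers and -0.15 for microglia identity markers. At 23 against 15 months 0 of 29 target genes were called and their median was 0.05. The authors' deposited table, which tested 28 of these genes, called 15 higher at 15 against 6 months, 14 higher at 23 against 6 months and 0 at 23 against 15 months, with 0 lower in each. Without young replicate 3 the count of 8 became 4, and it was 5 without young replicate 1, young replicate 2 or old replicate 3. In the same comparison 4 of 16 monocyte markers rose, 2 of 16 T and NK cell markers rose and 3 of 16 border macrophage markers fell. Their list medians were 0.42, 0.20 and -0.46. Over all genes tested 1.70% were called higher and 2.00% in either direction. The gene F13a1 is on both the monocyte and the border macrophage list. The summed linear level at 6 and 23 months was 2245 to 2526 and 2572 to 2907 for T and NK cell markers, and 183270 to 198298 and 117478 to 153209 for border macrophage markers. Of 12 microglia identity markers tested, 1 rose (C1qa) and 2 fell (Siglech and Fcrls), with a list median of -0.20. Their summed linear level was 1985270 to 2274490 at 6 months and 1649730 to 1892810 at 23 months. Their mean log2 deviations overlapped between these ages, at -0.00406 to 0.17 and -0.07 to 0.03. The part of these lists in the target genes was not tested.

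**Figure D4:**
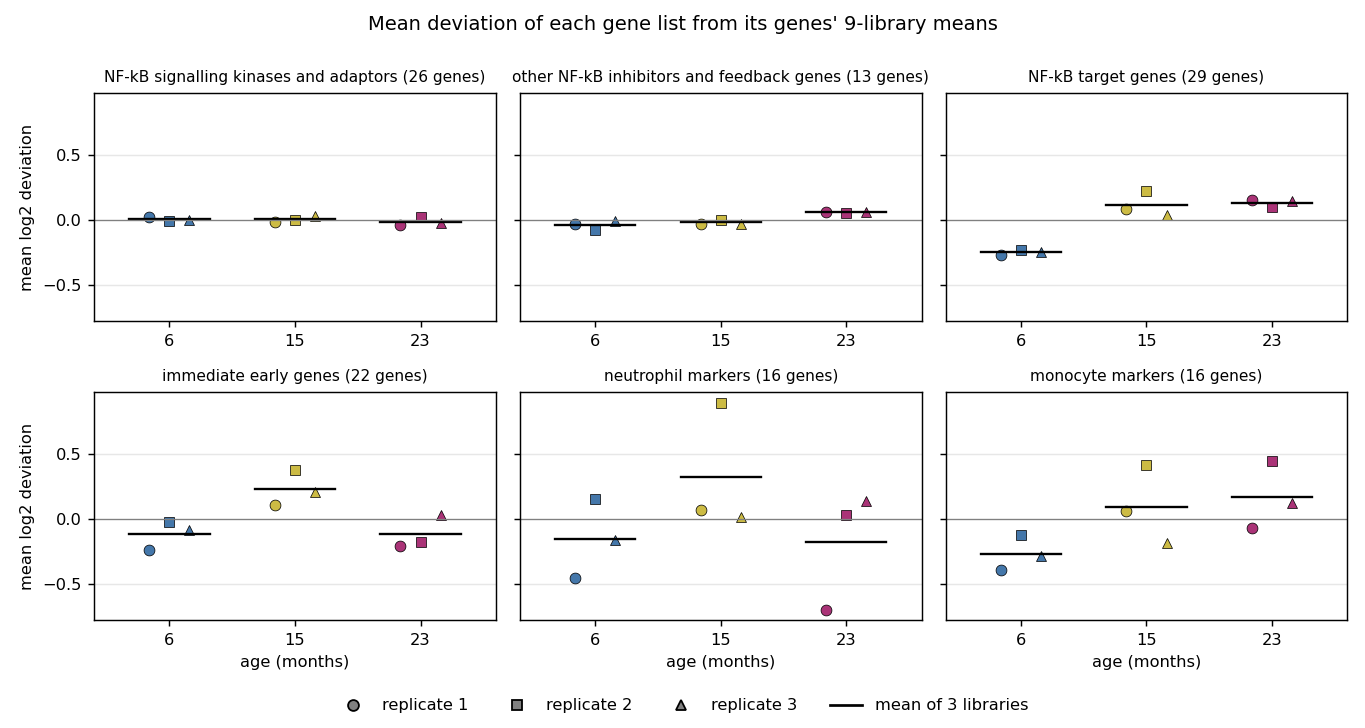
Mean log2 deviation of each gene list from its genes' means over the 9 libraries (vertical axis) against age in months, for 3 NF-kB pathway lists, immediate early genes, neutrophil markers and monocyte markers; symbols are libraries and bars the means of 3. Target genes lie between -0.27 and -0.23 in the young libraries and between 0.04 and 0.22 in the others, and middle-aged replicate 2 is highest for neutrophil markers at 0.90.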

How the data were processed

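The per-library values carry a file name that speaks of normalized counts, but they are log2 values as the authors deposited them and were used as such. How they were transformed is not stated. Differences between them, with their errors, may be smaller than log2 folds of counts. For Nfkb2 at 23 against 6 months the difference was 0.21 and the authors' fold 0.51. The authors' deposited comparison tables hold log2 fold changes with errors, a test score (not used) and raw and adjusted p-values, per the file headers; their base means were not used. The submitters' processing notes name STAR 2.5.3, cutadapt 1.13, CASAVA and DESeq2 1.16.1 and the build mm10, without saying what each did.

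A gene was tested if at least 3 libraries reached 3.32, which is log2 of 10 (14955 of 22036 genes). All 9 libraries entered one limma 3.58.1 fit (R 4.3.3) with age as the group and a trend in the variance. Tests were two-sided and moderated, adjusted by Benjamini-Hochberg over every gene tested, with a threshold of 0.05, and the fit was tested on simulated data. With 3 libraries per age the smallest exact permutation p is 0.1. Gene positions and exon lengths, with all annotated exons of a gene merged, were read from GENCODE M21 for GRCm38 (mm10). The 10 genes and the gene lists were chosen with earlier results of these data known. Up to 4 called genes were named per list and comparison, or the 2 with the smallest p where none was called, not all of which are printed; the other 4 target genes that rose, Il6, Cxcl1 and the markers given by level were chosen after their values were seen. Alternatives added an offset before the log, or changed the filter, the scaling, the variance model, the weights of libraries, the block for replicate numbers and the ages fitted, or left out 1 library.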

Additional observations from a re-analysis of the deposited data

How the results depend on the processing

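Of 600 values of the 10 genes under 20 alternatives, 582 kept their direction and their side of the threshold, 9 passed it where the fit reported here did not and 9 changed sign. Genes among the 10 called at 15 against 6 months numbered 0, but 2 with library weights (Nfkbia and Nfkbiz), where 312 of 14955 genes were called. At 23 against 6 months they numbered 0, but 3 with library weights (Nfkb1, Nfkb2 and Nfkbia), where 1609 of 14955 genes were called. They numbered 1 with a filter at log2 of 50 or with quantile normalization (Nfkbia), and 1 without a variance trend (Nfkb1). The counts over all genes at 23 against 6 months under these settings are not given here. When leaving out a library the number was 0 to 1, against 84 to 322 over all genes. The sign changes were all in fits that left out a library: there Rel ran from -0.126 to 0.0344 at 15 against 6 months and from -0.149 to 0.00758 at 23 against 15, Relb from -0.105 to 0.0998 and from -0.191 to 0.0137, Bcl3 from -0.00579 to 0.0949 at 15 against 6 and Tnfaip3 from -0.119 to 0.102 at 23 against 15. Over all genes, 17, 299 and 26 were called at 15 against 6, 23 against 6 and 23 against 15 months. These counts were 312, 1609 and 62 with library weights, 10, 170 and 9 with no filter, and 4 to 49, 84 to 322 and 3 to 23 when leaving out a library. The filter at log2 of 50 gave 29 and 47 for the first and the last, fits of 2 ages gave 153 and 0 for the second and the last, and no variance trend gave 3 for the last. With the replicate block the counts were 11, 185 and 14 and 0 of the 10 genes were called. Between same-numbered libraries, 3 of 9 correlations of their deviations were above 0.1 (range -0.24 to 0.23). Some differently numbered pairs lay further from 0, at 0.42 (young replicate 1, middle-aged replicate 3) and -0.44 (young replicate 2, middle-aged replicate 3). Deviations within an age sum to 0, so these correlations cannot decide whether same-numbered libraries share a batch. Of 29 target genes, 17 were called at 23 against 6 months with library weights and 5 in the fit of 2 ages, and 10 and 1 at 15 against 6 months. Over all genes these settings called 1609 and 153 at 23 against 6 months, and library weights called 312 at 15 against 6 months. The cause of these shifts was not tested. Depth is unknown, so what it limits cannot be given.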

Other observations

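The pattern of Nfkbia over the 9 libraries was most like those of Cd83, Degs1 and Dynll1 among the genes tested that carry a gene name rather than a clone or model number. Likeness is the root mean square difference between the profiles after subtracting each gene's mean: 0.115, 0.118 and 0.126 on the log2 scale, where Nfkbia itself varied by 0.336 around its mean. Cd83, which encodes a surface protein of activated antigen-presenting cells and is on the target list, was at 15.92, 16.32 and 16.21 at 6 months, 16.78, 17.27 and 16.61 at 15 months and 16.67, 16.60 and 16.79 at 23 months. Its young libraries were the 3 lowest and middle-aged replicate 2 the highest, as for Nfkbia. Cd83 was picked for its likeness over these same libraries, so the shared order is not a separate result. Degs1 encodes a ceramide-forming desaturase and Dynll1 a dynein light chain. Degs1 lay between 12.26 and 12.60 at 6 months and between 12.73 and 12.99 at the later ages.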
